A study of Mus musculus with 24 samples.

Results

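Neuroblastoma tumors of mice that carried both an IGF2BP1 and a MYCN transgene (TIM) were compared with tumor-free adrenal glands of mice that carried the MYCN transgene alone (AGM). The samples were chosen by their titles: 8 TIM tumors and 5 AGM glands, 13 of the 24 samples of the RNA-seq series. In every TIM and AGM mouse, iCre recombinase driven by the Dbh promoter, which is active in noradrenergic cells of the sympathoadrenal lineage, removed a stop cassette in front of a human transgene in the Rosa26 locus. The AGM genotype is given as MYCN +/-, CRE + and the TIM genotype as IMP1/MYCN, CRE +, where IMP1 is another name of IGF2BP1, and the study describes the TIM mice as carrying 1 of the transgenes on each Rosa26 allele. The human IGF2BP1 transgene lacks its native 3' untranslated region. The mice were backcrossed to C57BL/6N. The AGM glands came from mice kept for about a year, and the tumors from younger mice killed when the tumor burden required it, so genotype, tissue and age cannot be told apart. By the labels, 2 of the TIM tumors came from the adrenal gland and 1 from the spine, and for the other 5 no site is given, so these may lie outside the adrenal gland. No table column could be tied to its site. All 5 AGM glands were sequenced in run 2, together with 3 of the TIM tumors, while the other 5 TIM tumors were in run 3. No table column could be tied to its run, so no comparison within a run was possible. The remaining samples, 3 adrenal glands of Cre-negative mice from run 1 (AG) and 8 tumors with the IGF2BP1 transgene alone (TI), entered the shared estimate of spread, the expression filter and the choice of genes to name, and AG values are given as the level in glands without any active transgene.

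The adrenal gland joins tissues of different origin. Cells of the outer cortex make steroid hormones from cholesterol under the control of the nuclear receptor NR5A1, whereas chromaffin cells of the inner medulla descend from the neural crest and release catecholamines. Neuroblastoma arises from the sympathetic branch of the same neural crest lineage, and its adrenergic cell state is held by transcription factors such as HAND2 and ISL1. MYCN is a basic helix-loop-helix factor that binds E-boxes as a dimer with MAX and drives ribosome production, nucleotide synthesis and the cell cycle. IGF2BP1 is an oncofetal RNA-binding protein that protects target mRNAs, among them that of MYCN, from decay through microRNAs.

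Expression was given as FPKM, fragments scaled by transcript length and sequencing depth, which the authors had corrected for run. Outside 126 genes with corrected values above 1000 FPKM, which ranged up to 12269500 FPKM, each TIM or AGM library held 14531700 to 23683200 reads recovered from the FPKM. Those 126 genes took 64.5 to 97.3% of the recovered reads of the TIM libraries and 86.1 to 98.6% of those of the AGM libraries, but at most 2.21% of a TI library. Between 6287 and 7381 genes reached 1 FPKM in a TIM library, and between 7168 and 7500 in an AGM library. Libraries are numbered here in the order of the table's columns, which is not the number in the sample titles. The 6 liver markers summed to 4387 FPKM in AGM 4 and 6072 FPKM in AGM 5 and to 5.31 to 188 FPKM in the other AGM libraries. TIM 5 held the highest adipocyte marker sum among the tumors, 70.0 FPKM against 370.1 to 1396 FPKM in the AGM libraries, and also the highest level of the cortical steroid genes, a summed 24.5 FPKM against 4991 FPKM or more in every AGM library.

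Promoters of 4 genes, 300 bases each, are shown because they hold the motif of the factor that the group they belong to is known for. The first is that of Akr1b7, an aldo-keto reductase of the cortex, with the NR5A1 site AAGGTCA, here read on the reverse strand as TGACCTT, in capitals. The other 3, of Impdh2 and Sms from nucleotide and polyamine synthesis and of the nucleolar methyltransferase Nop2, hold the canonical E-box CACGTG, which reads the same on both strands, in capitals. Each runs 5' to 3' along the gene's strand from 250 bases before to 50 bases after a transcription start in RefSeq, build GRCm38.p6. For Sms, RefSeq lists another start, whose promoter (chrX:157491319-157491618) holds no CACGTG.
Akr1b7 promoter, chr6:34412112-34412411, strand plus: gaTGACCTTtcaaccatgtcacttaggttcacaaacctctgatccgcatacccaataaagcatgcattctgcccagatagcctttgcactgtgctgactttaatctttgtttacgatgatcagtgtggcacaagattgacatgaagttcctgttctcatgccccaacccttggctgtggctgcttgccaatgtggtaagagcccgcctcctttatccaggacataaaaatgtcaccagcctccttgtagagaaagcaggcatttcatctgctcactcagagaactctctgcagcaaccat
Impdh2 promoter, chr9:108560186-108560485, strand plus: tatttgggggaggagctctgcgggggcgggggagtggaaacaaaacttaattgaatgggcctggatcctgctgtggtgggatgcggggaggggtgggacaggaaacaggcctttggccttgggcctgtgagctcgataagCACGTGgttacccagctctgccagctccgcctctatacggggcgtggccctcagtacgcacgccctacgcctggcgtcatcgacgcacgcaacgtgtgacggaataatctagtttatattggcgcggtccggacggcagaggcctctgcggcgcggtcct
Nop2 promoter, chr6:125131633-125131932, strand plus: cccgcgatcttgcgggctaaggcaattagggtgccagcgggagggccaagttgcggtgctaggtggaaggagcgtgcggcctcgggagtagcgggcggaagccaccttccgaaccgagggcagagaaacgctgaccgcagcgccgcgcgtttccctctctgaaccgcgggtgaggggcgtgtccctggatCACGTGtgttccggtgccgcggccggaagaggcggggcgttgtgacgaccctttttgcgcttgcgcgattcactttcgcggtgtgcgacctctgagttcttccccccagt
Sms promoter, chrX:157492238-157492537, strand minus: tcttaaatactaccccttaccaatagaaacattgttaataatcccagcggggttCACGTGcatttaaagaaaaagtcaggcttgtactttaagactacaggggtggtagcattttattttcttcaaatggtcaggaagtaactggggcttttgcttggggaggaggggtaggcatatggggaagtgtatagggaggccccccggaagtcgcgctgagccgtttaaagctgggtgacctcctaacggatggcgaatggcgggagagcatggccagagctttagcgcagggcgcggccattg
The NR5A1 site was found in 1 of the 10 genes of the steroid synthesis list with a RefSeq promoter and in none of the 8 such genes of the cortex regulator list, against 3.72% of 8012 tested genes with a promoter and 4.72% of all 32851 promoters. No such entry was found for Star, Cyp21a1 and Cyp11b1. CACGTG was found in 5 of 20 genes of polyamine, serine, one-carbon and nucleotide synthesis, in 2 of 14 of ribosome biogenesis, in 1 of 17 of mitosis and in none of 12 of the neuronal cytoskeleton, against 11.6% of the tested genes and 7.15% of all promoters. A match of letters is not a bound site.

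TIM tumors and AGM glands differed in most of the expressed transcriptome. The filter, a level of 1 FPKM or more in 3 or more of the 24 libraries, left 10171 genes, of which 6639 (65.3%) differed at an adjusted p below 0.05 in limma, 3241 (31.9%) higher and 3398 (33.4%) lower in TIM. At a log2 fold change of at least 1 in size, 879 genes (8.64%) were higher and 1633 (16.1%) lower. Changes above 5 were counted for 25 genes upward and 130 downward. In 3582 genes (35.2%) no TIM library overlapped any AGM library. These log2 fold changes are on the scale of log2(FPKM + 1), so that changes of weakly expressed genes come out too small. The median over all tested genes was 0.03. When the FPKM were rebuilt from the recovered reads without the 126 genes, that median moved to 0.21 and the share of calls that were higher moved from 48.8% to 61.3%; without AGM 4, AGM 5 and TIM 5, 5948 genes were called, 46.1% of them higher. The p-values measure the spread between samples of these mice.

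Genes of the steroid program of the cortex were much lower in the tumors. All 14 tested genes of cortical steroid synthesis and 13 of 14 regulators and cholesterol suppliers of cortex cells were lower in TIM, with median log2 fold changes of -6.81 and -3.87 against 0.03 over all genes. Star, which carries cholesterol into the mitochondrion, was at 371, 416, 476, 354 and 238 FPKM in the AGM libraries and between 0.1 and 0.51 FPKM, median 0.245, in TIM. Its log2 fold change was -8.18 ± 0.19 (SE; limma adjusted p = 1.18e-20), and the AG glands had 182 FPKM on average. Every tumor thus lay far below every gland. Cyp11a1, which cleaves the side chain of cholesterol as the first enzyme of the pathway, had 270.5 ± 48.5 FPKM (SD, n = 5) in AGM and 0.0827 ± 0.148 FPKM (n = 8) in TIM. Cyp11b1, which completes corticosterone, had 592 ± 111 FPKM in AGM, 0.308 ± 0.429 FPKM in TIM and 78.9 FPKM in AG. The 21-hydroxylase Cyp21a1 fell by 10.07 and the 3β-hydroxysteroid dehydrogenase Hsd3b1 by 9.89 on the log2 scale, the largest changes of the list. Akr1b7, whose promoter is printed above, ranged from 440.3 to 1020.2 FPKM in AGM and from 0 to 1.72 FPKM in TIM.

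The regulators of that program were lower along with its enzymes. Nr5a1, the master regulator of steroid cells, had 56.8, 42.8, 51.6, 53.5 and 53.9 FPKM in the AGM libraries and 0 to 0.0598 FPKM in TIM, a log2 fold change of -5.69 ± 0.06 (SE; limma adjusted p = 2.68e-27). Mc2r, the receptor for corticotropin, had 44.3 ± 7.41 FPKM in AGM and was listed at 0 in 7 of 8 tumors. Its accessory protein Mrap fell by 5.98, the cholesterol receptor Scarb1 by 4.33 and the ester-forming enzyme Soat1 by 3.25 on the log2 scale. Apoe, which many other cells make as well, was the member that missed the threshold, with a log2 fold change of -1.08. The AGM levels of both cortical lists stood above those of the Cre-negative glands, so the falls are measured from a raised level. Steroid synthesis genes summed to 4991 to 6599 FPKM in AGM and 1011 to 1107 FPKM in AG. The regulator and cholesterol supply list summed to 702 to 1637.5 FPKM in AGM and 381 to 403 FPKM in AG. Among single genes, the aldosterone synthase Cyp11b2 averaged 559 FPKM in AGM and 0.0482 FPKM in AG, and the repressor Nr0b1 144 and 0.0139 FPKM. Nr5a1 itself was at 7.96 FPKM in AG. AG and AGM glands were in different runs, and the part of the run correction in these AGM levels was not tested. In bulk tissue, fewer cells of a type and less RNA per cell cannot be told apart.

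Adh1, an alcohol dehydrogenase that is on none of the lists, had the largest fall among genes that were neither above 1000 FPKM in any library nor under 1 FPKM in every AG and TI library, from 845 ± 112 FPKM in AGM to 1.11 ± 1.7 FPKM in TIM (log2 fold change -8.94). It was at 180 to 193 FPKM in the AG glands, where the adipocyte markers summed to 212 to 1489 FPKM. Genes of fat and of lipid synthesis were lower as well. All 10 adipocyte markers were lower, with a median log2 fold change of -4.62. Lep, the hormone of fat cells, was at 83.8 to 773 FPKM in AGM and listed at 0 in 7 of 8 tumors, with 0.842 FPKM in AG. Scd1, which desaturates fatty acids, ranged from 305 to 713 FPKM in AGM and from 0.23 to 67.3 FPKM in TIM. Rbp4, the carrier of retinol, ranged from 19.6 to 523 FPKM in AGM, highest in the pair of libraries with liver markers. The 6 liver markers were all lower in TIM too, with a median of -4.81 that became -2.33 without AGM 4, AGM 5 and TIM 5, and in 1 of the 6 no tumor overlapped a gland. How far fat and liver carried over with the glands sets these falls was not tested.

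**Figure D1:**
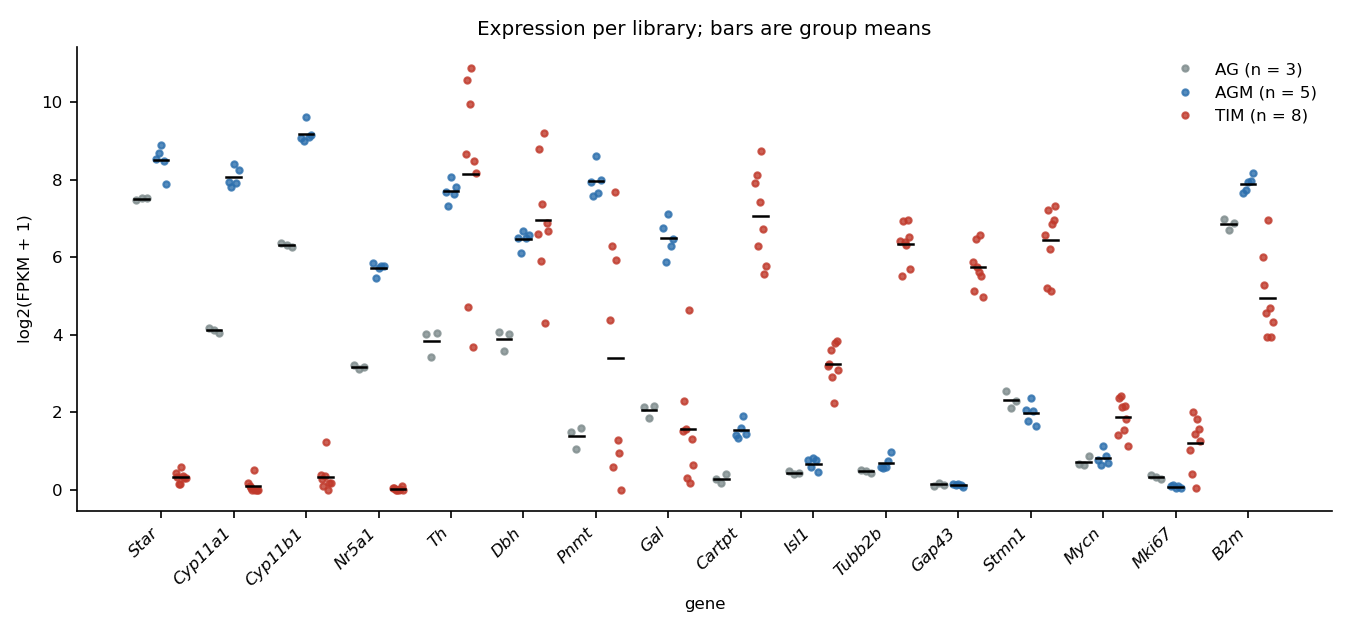
Expression of 16 genes in each library as log2(FPKM + 1), with a point for each AG (n = 3, grey), AGM (n = 5, blue) and TIM (n = 8, red) library and a bar for each group mean. Star, Cyp11a1, Cyp11b1 and Nr5a1 sit near 0 in every tumor, Tubb2b and Gap43 sit above every gland in all 8 tumors, and Th, Dbh and Pnmt spread widely among the tumors.

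Chromaffin genes did not follow the cortex. Of 11 genes of catecholamine synthesis and transport, 2 were higher and 2 lower in TIM, with a median log2 fold change of 0.36. The AGM level was itself far above that of the Cre-negative glands. The list summed to 62.3 to 77.9 FPKM in AG and 490 to 869 FPKM in AGM. In TIM the sum was 53.2 to 2748 FPKM, median 585. AG and AGM glands were in different runs, and the part of the run correction in this gap was not tested. Th, the rate-limiting enzyme, was at 205, 159, 269, 197 and 224 FPKM in the AGM libraries, and in TIM it ran from 11.8 to 1889 FPKM with a median of 383. Of the tumors, 6 lay above and 2 below every gland, and the log2 fold change of 0.44 did not pass (limma adjusted p = 0.697). Dbh, which makes noradrenaline and whose promoter drove the Cre, had 88.5 ± 12.1 FPKM in AGM and 200 ± 206 FPKM in TIM, with 5 tumors above and 2 below the glands (0.50; limma adjusted p = 0.477). Pnmt, which turns noradrenaline into adrenaline, fell: it was at 192 to 391.9 FPKM in AGM and 0 to 204 FPKM in TIM, median 10.6, below every gland in 7 of 8 tumors (log2 fold change -4.57 ± 1.13, SE; limma adjusted p = 0.00134). The vesicular transporter Slc18a2 rose by 2.11 and the monoamine oxidase Maoa by 1.13.

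Of 17 tested granin and neuropeptide genes 6 were higher and 6 lower, shares close to the 31.9% and 33.4% of all tested genes. The list summed to 151 to 214 FPKM in AG and 1694 to 2985 FPKM in AGM. In TIM it summed to 352 to 17591 FPKM, median 1800. Cartpt, the precursor of a neuropeptide, rose from 1.53 to 2.72 FPKM in AGM to 46.0 to 427 FPKM in TIM, a log2 fold change of 5.53 ± 0.54 (SE; limma adjusted p = 6.83e-09). Scg3 rose by 1.74, Adcyap1 by 1.73 and Vgf by 2.64. Chga, the main protein of chromaffin granules, went from 910 ± 232 to 414 ± 475 FPKM (log2 fold change -2.10). Gal, the precursor of galanin, went from 93.3 ± 30.8 to 4.26 ± 8.07 FPKM (-4.94), and Penk, the precursor of enkephalins, changed by -2.20. Vip, another neuropeptide, was at 35.9 FPKM in TIM 3 and 87.5 FPKM in TIM 6 and at 0 to 0.307 FPKM in the other tumors.

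Most factors of the adrenergic core circuit were higher in the tumors. Of 13 genes, 8 rose and 1 fell, against 31.9% and 33.4% of all tested genes, with a median of 1.02. Isl1, a LIM homeodomain factor of sympathetic neurons, was at 0.691, 0.490, 0.749, 0.691 and 0.362 FPKM in the AGM libraries and at 3.68 to 13.3 FPKM, median 8.29, in TIM. No tumor overlapped a gland (log2 fold change 2.57 ± 0.28, SE; limma adjusted p = 3.6e-08). Tfap2b rose by 2.48, Hand2 by 1.22 and the fetal sympathoblast factor Sox11 by 1.45. Hand1 was the member that fell, from 17.1 to 28.0 FPKM in AGM to lower values in TIM, where TIM 1 and TIM 7 kept 13.5 and 19.998 FPKM and no other tumor passed 0.204 FPKM. Phox2a, Gata2 and Gata3 were among the members that did not pass the test. Gata3 was at 0.186 FPKM in TIM 8 and at 3.03 to 7.62 FPKM in the other tumors.

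Among 7 tested receptors, Alk and Ret rose, and Fgfr1 and Insr fell, shares near the 31.9% and 33.4% of all tested genes. Another 5 of the 12 listed receptors were below the expression filter. Alk, a receptor kinase mutated in familial neuroblastoma, was at 0.00842 to 0.0286 FPKM in AGM and at 0.363 to 2.70 FPKM in TIM, and TIM 8 was the lowest (log2 fold change 1.58 ± 0.27, SE; limma adjusted p = 2.47e-05). Ret, the signalling receptor for the GDNF family, went from 0.308 ± 0.0498 to 8.55 ± 4.5 FPKM. Fgfr1 changed by -1.14 and Insr by -0.29. Of the 6 tested factors of the mesenchymal neuroblastoma state, 4 were lower, among them Fosl2 at -2.62, Twist1 at -1.38, Yap1 at -1.12 and Notch2 at -0.90, and 1, Tead1, was higher; 7 of the 13 listed genes were below the expression filter.

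Genes of the neuronal cytoskeleton were higher in the tumors. All 22 genes of the list were higher in TIM, in 20 of them without overlap, with a median log2 fold change of 3.06. Tubb2b, a neuronal β-tubulin, had the largest rise among genes kept by those same limits. It was at 0.489, 0.484, 0.489, 0.665 and 0.974 FPKM in the AGM libraries and at 44.5 to 124 FPKM, median 83.8, in TIM (5.66 ± 0.38, SE; limma adjusted p = 8.3e-12). Gap43, a growth cone protein, had 0.0857 ± 0.0294 FPKM in AGM and 56.1 ± 23.3 FPKM in TIM. Tubb3 rose by 5.20, the neurofilament genes Nefl by 5.07 and Nefm by 4.68, and Stmn1, which destabilises microtubules, by 4.46. The lowest change of the list was 1.11, in Mapt, which encodes tau and fell below the glands in TIM 8. Outside the list, Basp1 rose by 5.39 and Zcchc12 by 4.05, and the early growth response factor Egr4 ran from 13.6 to 635 FPKM in TIM against 0 to 5.19 FPKM in AGM. Of 17 tested genes of synaptic vesicles and exocytosis, 15 rose and none fell, among them Cplx1 (3.11), Sv2c (2.12) and Snap25 (1.62).

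Positions of 5 of these genes are given on GRCm39 from GENCODE mouse release 39. Tubb2b lies on chromosome 13 from 34307245 to 34315143 and Gap43 on chromosome 16 from 42068805 to 42161086. Star lies on chromosome 8 from 26296583 to 26306010, Cyp11a1 on chromosome 9 from 57913694 to 57935933 and Cyp11b1 on chromosome 15 from 74699444 to 74713748. Each span is that of the whole gene, exons, introns and untranslated regions together.

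**Figure D2:**
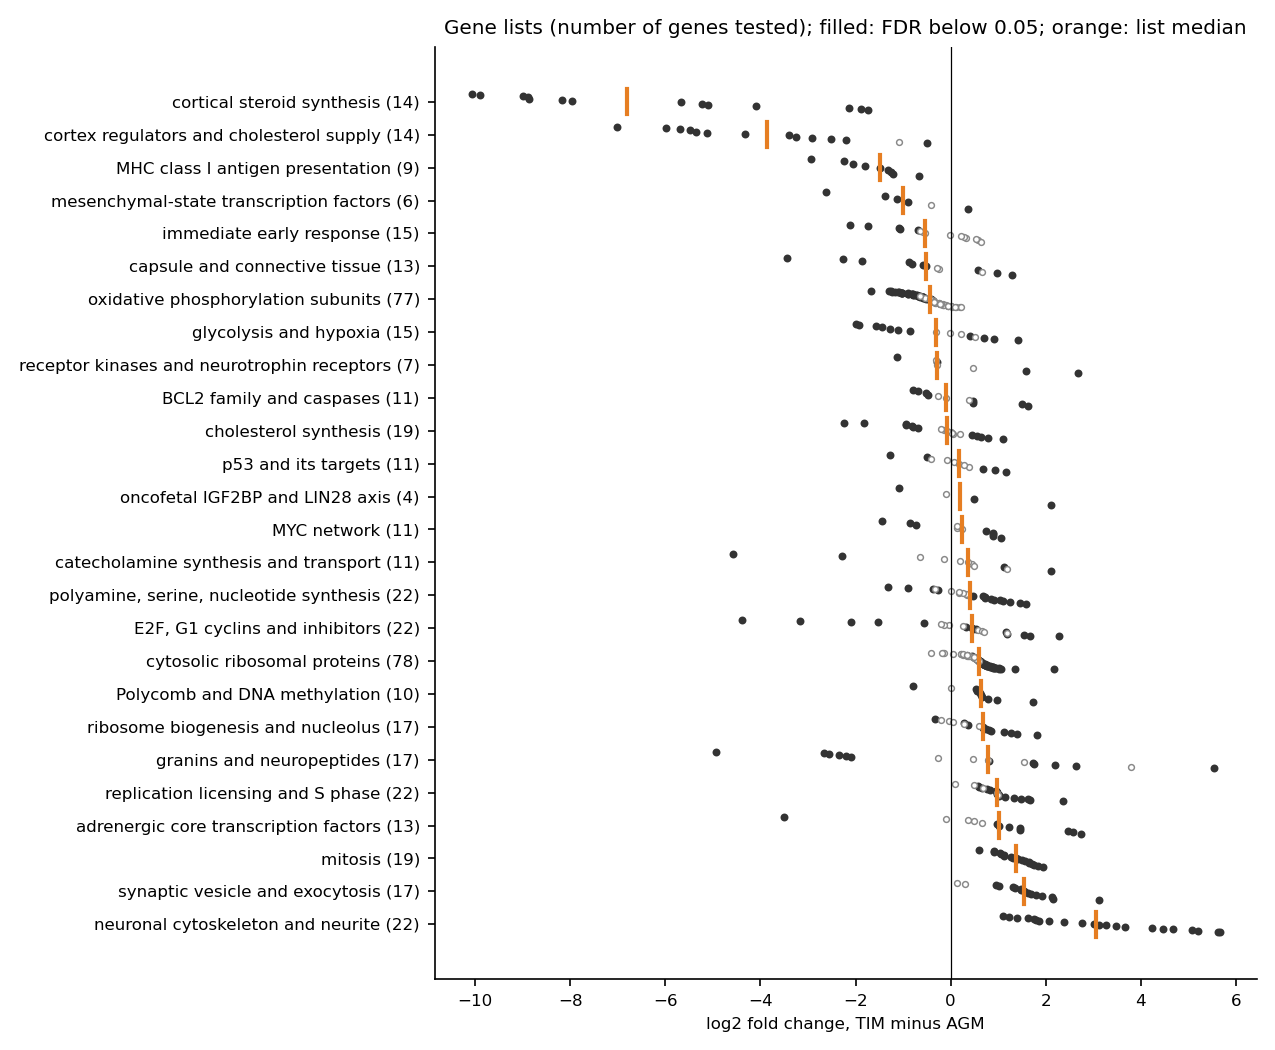
Log2 fold change, TIM minus AGM, of each tested gene of 26 lists on the horizontal axis, with filled points for adjusted p below 0.05, open points for the rest and an orange line at the list median; the number tested is beside each name. The cortical lists lie to the left of 0 with medians of -6.81 and -3.87, and the neuronal cytoskeleton list lies to the right with a median of 3.06.

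The mouse genes of the transgenes and their partners moved as follows. Reads of the human transgenes had no row of their own in the table, so the transgenes could not be checked directly. Mycn was at 0.689, 0.559, 1.19, 0.838 and 0.613 FPKM in the AGM libraries and at 1.199 to 4.38 FPKM, median 2.97, in TIM. Every tumor lay above every gland (log2 fold change 1.06 ± 0.34, SE; limma adjusted p = 0.01), and AG averaged 0.654 FPKM. Whether transgene reads reached this row was not tested. Myc went the opposite way, from 2.36 to 3.59 FPKM in AGM to 0.15 to 1.13 FPKM in TIM (-1.44 ± 0.16, SE; limma adjusted p = 8.69e-08). Of the other genes of the MYC network list, Mxi1, Mxd3 and Mnt rose by 0.73, 0.88 and 0.89. Mxd4 and Mlx changed by -0.73 and -0.85, and Max itself did not pass the test (0.14).

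Igf2bp1 stayed below the expression filter, with 3 to 81 recovered reads a library in TIM and 1 to 18 in AGM. It averaged 0.033 ± 0.0264 FPKM in TIM and 0.0109 ± 0.0071 FPKM in AGM, and 4 of 8 tumors lay above every gland (two-sided exact permutation test, p = 0.0886). Lin28b, the oncofetal inhibitor of let-7 processing, was above every gland in 7 of 8 tumors, at 0.181 ± 0.175 against 0.00155 ± 0.00173 FPKM. The exact permutation test gave p = 0.0264 for it, or 0.0528 adjusted over both genes. Hmga1, an architectural chromatin protein, went from 2.82 to 4.23 FPKM in AGM to 12.5 to 24.1 FPKM in TIM (2.11 ± 0.17, SE; limma adjusted p = 2.55e-10). Igf2 was lower, at 0.599 to 1.96 FPKM in AGM and 0 to 0.454 FPKM in TIM, but averaged only 0.00164 FPKM in AG. Igf2bp2, Igf2bp3, Lin28a and Hmga2 were below the filter.

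Genes of ribosome production were higher in the tumors than in the AGM glands. Of 17 tested genes of ribosome biogenesis 11 were higher and 1 was lower, against 31.9% and 33.4% of all tested genes, with a median of 0.67. In 3 of the 17 no tumor overlapped a gland, against 35.2% of all tested genes. The mean log2 level of the list was 1.66 to 1.82 in AGM but 2.14 to 2.19 in AG. Among the tumors it was 1.66 to 2.89, median 2.37. Npm1 and Ncl, the abundant proteins of the nucleolus, rose by 1.82 and 1.27, and Nop56 by 1.39. Nop2, with an E-box in its promoter as printed above, was at 3.34 to 4.56 FPKM in AGM and 6.43 to 9.84 FPKM in TIM, without overlap. Cytosolic ribosomal protein genes were higher in 48 of 78 and lower in none, with Rpl32 at the top, 65.8 ± 11.1 FPKM in AGM and 380 ± 284 FPKM in TIM. That count was 65 with rebuilt FPKM and 35 with median-of-ratios scaling, and 32 without AGM 4, AGM 5 and TIM 5. Ribosomal proteins have many pseudogene copies, and how reads of near-identical copies were assigned was not tested.

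Biosynthesis was mixed. Of 22 genes of polyamine, serine, one-carbon and nucleotide synthesis 11 were higher and 4 lower, against 31.9% and 33.4% of all tested genes. In 6 of the 22 no tumor overlapped a gland, against 35.2% of all tested genes. Mthfd2, of mitochondrial folate metabolism, rose by 1.58, Sms by 1.46, the spermidine synthase Srm by 1.25 and Impdh2 by 1.11, and all 4 had every tumor above every gland. Odc1, a textbook MYC target that makes putrescine, did not pass: it was at 6.99 to 8.94 FPKM in AGM and 3.57 to 17.5 FPKM in TIM (0.35; limma adjusted p = 0.284). Shmt1 and Shmt2 changed by -1.31 and -0.89. Subunits of oxidative phosphorylation went the other way from the ribosome: 41 of 77 were lower and none higher, with a median of -0.43. Sdha, the catalytic subunit of complex II, was at 22.7 to 28.0 FPKM in AGM and 3.38 to 14.1 FPKM in TIM (-1.67). This list depended on the scaling, since 21 were lower and 2 higher with rebuilt FPKM, where the median of the list was -0.13 against 0.21 over all genes. Of 15 genes of glycolysis and hypoxia, 4 were higher and 7 lower, against 31.9% and 33.4% of all tested genes, with Vegfa at -1.996 and Epas1 at -1.92. This list summed to 368 to 558 FPKM in AGM but 173 to 231 FPKM in AG. In TIM it summed to 173 to 469 FPKM, median 229. The part of the run correction in the gap between AG and AGM was not tested. Of 19 genes of cholesterol synthesis 5 were higher and 7 lower, among them Dhcr7 (-2.24), which is near the shares of all tested genes.

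Proliferation genes were higher in the tumors and at low levels in the glands. All 19 tested mitosis genes and 17 of 22 genes of replication licensing and S phase rose, against 31.9% of all tested genes, with medians of 1.38 and 0.98. No tumor overlapped a gland in 4 of the 19 and 0 of the 22 genes, against 35.2% of all tested genes. The mean log2 level of the replication list was 0.59 to 0.73 in AGM, 1.06 to 1.12 in AG and 0.38 to 2.47 in TIM. That of the mitosis list was 0.17 to 0.29 in AGM and 0.44 to 0.56 in AG. Mki67, the proliferation marker, was at 0.0588, 0.0866, 0.021, 0.062 and 0.0249 FPKM in the AGM libraries and at 0.0328 to 3.03 FPKM, median 1.56, in TIM, above every gland in 7 of 8 tumors (1.12 ± 0.26, SE; limma adjusted p = 0.000709). Rrm2, a ribonucleotide reductase subunit, rose by 2.36, Cdc20 by 1.94, Plk1 by 1.85 and Top2a by 1.76. Birc5, which encodes survivin, had 0.0996 ± 0.0389 FPKM in AGM and 2.62 ± 1.91 FPKM in TIM. With limma-voom on the recovered reads, 10 mitosis and 10 replication genes were called, although the fold changes of both lists were larger there.

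Of 22 tested regulators of the entry into the cycle 9 were higher and 5 lower, and the share called was near the 65.3% of all tested genes. The D cyclins parted: Ccnd1 was at 5.37 to 7.70 FPKM in AGM and 11.7 to 116 FPKM in TIM, a rise of 2.27, whereas Ccnd2 and Ccnd3 changed by -2.10 and -3.16. Ccne1 rose by 1.53. Among the cyclin kinase inhibitors, Cdkn1c, an imprinted gene, dropped from 93.2 to 172 FPKM in AGM to 0.209 to 34.6 FPKM in TIM (-4.39), against 6.31 FPKM in AG, while Cdkn1a, Cdkn1b and Cdkn2d rose by 1.16, 1.66 and 1.19. Of the activating E2F factors, E2f3 rose by 0.47, and E2f1 and E2f2 did not pass (0.58 and 0.67). The p53 list had 3 genes higher and 2 lower of 11, 45.5% called against 65.3% of all tested genes, and Trp53 itself was at 0.08. Of 11 genes of the BCL2 and caspase list, 4 rose and 4 fell, shares near the 31.9% and 33.4% of all tested genes. Birc5 was among those that rose. Among those that fell was Casp8 (-0.79), the initiator caspase of death receptors, at 0.0725 to 0.414 FPKM in TIM and 0.699 to 1.27 FPKM in AGM. Of 10 chromatin regulators of the Polycomb and DNA methylation list 8 rose, against 31.9% of all tested genes, led by Uhrf1 (1.74) and Dnmt1 (0.98). Ezh1 fell (-0.79).

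Antigen presentation and vascular genes were lower. All 9 tested genes of MHC class I presentation fell, with a median of -1.49. B2m, the light chain of MHC class I, was at 201, 213, 243, 250 and 289 FPKM in the AGM libraries and at 14.2 to 123 FPKM, median 23.6, in TIM, below every gland (-2.94 ± 0.45, SE; limma adjusted p = 7.18e-06). Tap2 changed by -2.25, Tapbp by -2.06, Psmb8 by -1.80 and the interferon factor Irf1 by -1.49. All 10 endothelial markers were lower as well, with a median of -1.02, and their summed level was 42.5 to 59.2 FPKM in AGM and 5.56 to 29.5 FPKM in TIM. Macrophage markers summed to 60.8 to 98.0 FPKM in AGM and 38.7 to 78.2 FPKM in TIM, and 2 of 9 were lower. Of the 10 lymphocyte markers only Cd79a passed the filter, and it was lower in TIM (-0.99). The part of these cells in the lower MHC class I levels was not tested. Of 15 immediate early genes, 5 were lower, led by Nr4a1 (-2.12), a share near the 33.4% of all tested genes. None was higher, against 31.9% of all tested genes. Of 13 capsule and connective tissue genes, Wt1 (-3.45), Tcf21 (-2.26), Rspo3 (-1.87) and another 4 were lower, and Col1a1, Col3a1 and Postn were higher; without AGM 4, AGM 5 and TIM 5 none of these was called higher.

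The tumors differed among themselves in chromaffin and cycle genes. The mean log2 level of the catecholamine list ran from 1.98 in TIM 6 and 2.39 in TIM 3 to 5.25 in TIM 5, on both sides of the 3.73 to 4.18 of the glands. The mitosis list ran from 0.19 in TIM 5, inside the 0.17 to 0.29 of the glands, and 0.72 in TIM 2 to 2.47 in TIM 3. The neuronal cytoskeleton list stayed within 3.51 to 4.74, far above the 0.83 to 1.01 of the glands. TIM 3 and TIM 6 combined the lowest Th, 25.1 and 11.8 FPKM, with Mki67 at 3.03 and 2.52 FPKM, and TIM 5 and TIM 2 combined the highest Th, 1889 and 1514 FPKM, with Mki67 at 0.0328 and 0.323 FPKM. Schwann cell markers summed to 7.51 to 50.7 FPKM in TIM and 2.44 to 5.37 FPKM in AGM, and the glial factor Sox10 reached 15.3 FPKM in TIM 5 and 8.24 FPKM in TIM 1 but at most 1.19 FPKM in the other tumors. Of 8 tested Schwann markers 4 were higher, among them Gfra3 (2.67), and 1 was lower; 1 was called higher without TIM 1, and also without AGM 4, AGM 5 and TIM 5.

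**Figure D3:**
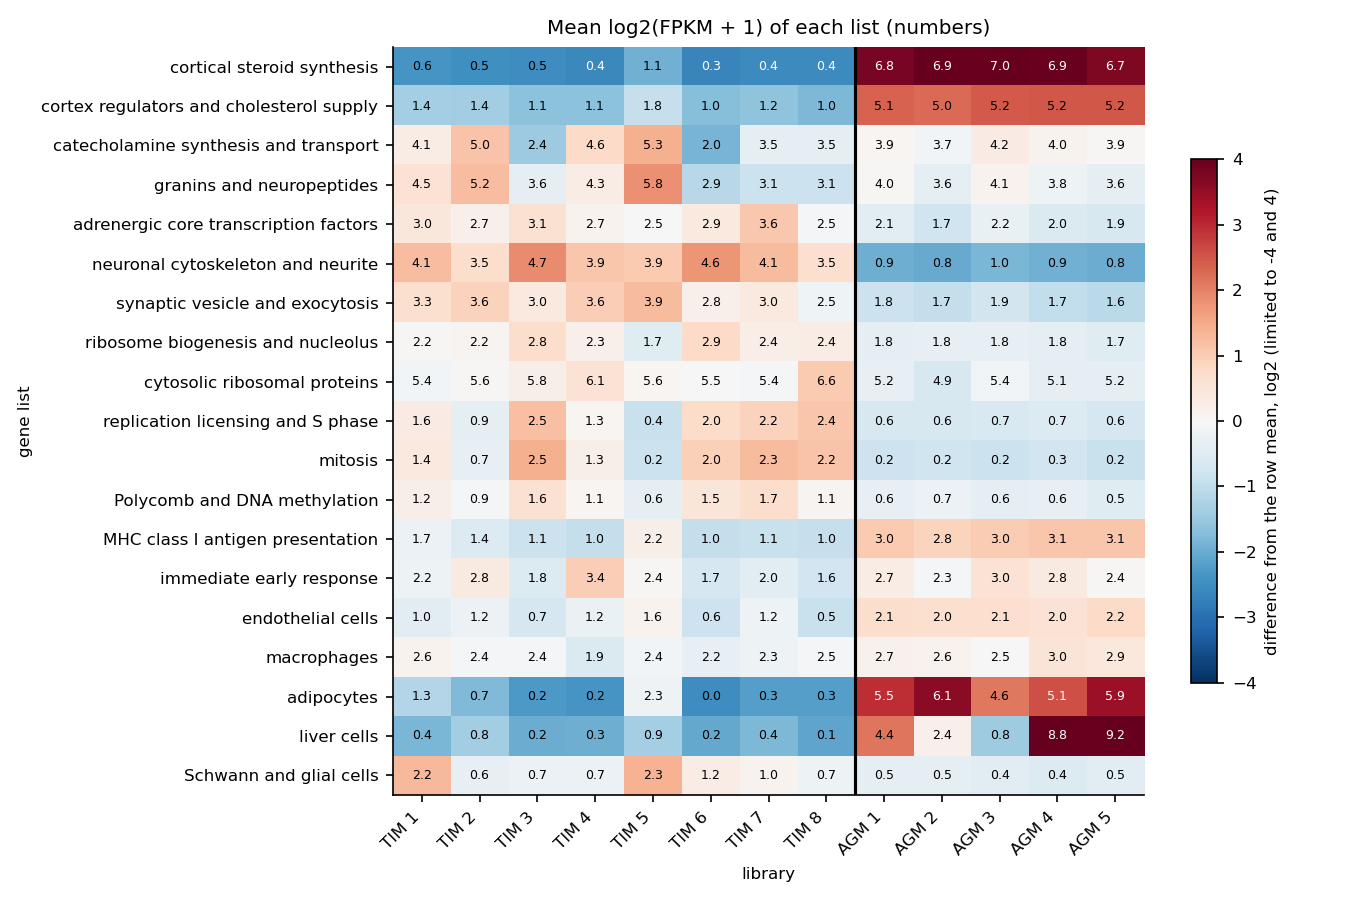
Mean log2(FPKM + 1) over the tested genes of each list (rows) in every TIM and AGM library (columns), printed in each cell, with color for the difference from the row mean on the log2 scale, limited to -4 and 4. Mitosis reads 0.2 in TIM 5 as in the glands and 2.5 in TIM 3, and liver markers read 8.8 and 9.2 in AGM 4 and AGM 5.

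The median of the genes of a chromosome, relative to the genome and to the AGM glands, was above 0 in all 8 tumors for chromosomes X (median 0.16 on the log2 scale, 0.08 to 0.33), 18 (0.18, 0.02 to 0.39), 12 (0.07) and 10 (0.05), and below 0 in all 8 for chromosomes 9 (-0.12), 19 (-0.12), 4 (-0.08) and 15 (-0.07). Single AGM glands departed by at most 0.10 in size on any chromosome. TIM 8 reached 0.38 on chromosome 6, where TIM 7 and TIM 1 had 0.21 and the whole group had a median of 0.04. Of these values, chromosomes 18 and X moved to 0.29 and 0.28 and chromosome 4 to -0.13 with a pseudocount of 0.1, and chromosome 4 to -0.03 with at least 1 FPKM in every TIM and AGM library. These are descriptions of expression, with no test and no measure of copy number, and the sex of the mice is not given in the labels.

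**Figure D4:**
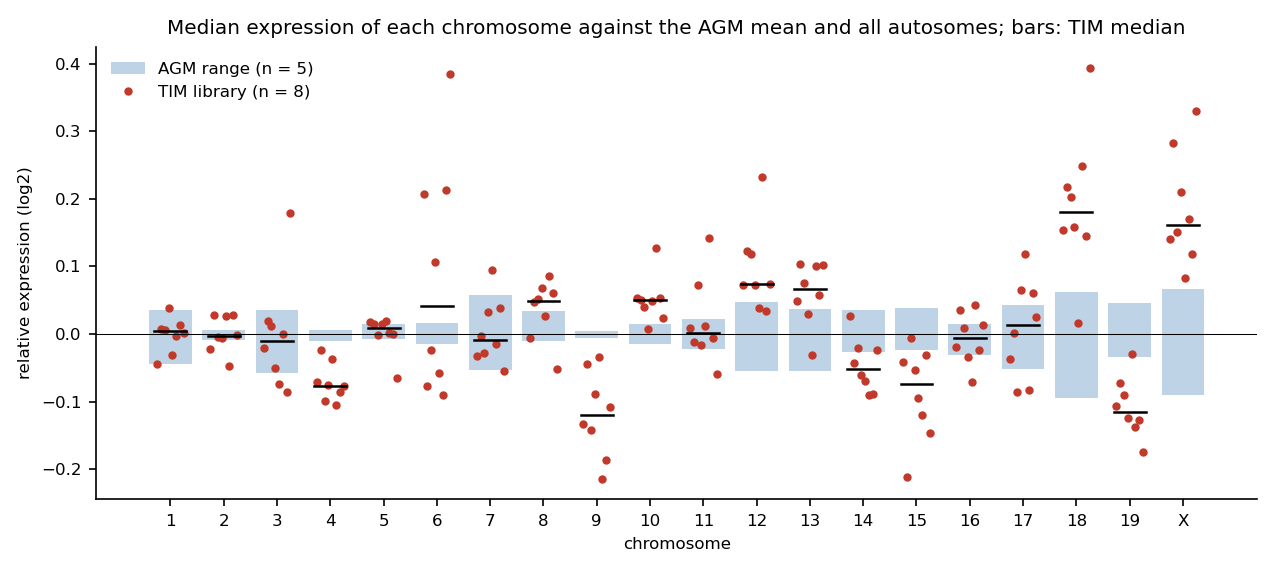
Median expression of the genes of each chromosome relative to the AGM mean and to all autosomes, on the log2 scale, with a red point for each TIM library (n = 8), a black bar for the TIM median and a blue band for the range of the AGM libraries (n = 5). All 8 tumors lie above 0 on chromosomes 10, 12, 18 and X and below 0 on chromosomes 4, 9, 15 and 19.

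The extreme values were described only. Of the 126 genes above 1000 FPKM in some library, 53 passed it in TIM and 85 in AGM. Fndc9 was at 898714 FPKM in TIM 5 and listed at 0 in TIM 6 and in every AGM library but AGM 2. Ctrb1, which encodes a pancreatic digestive enzyme, reached 3480580 FPKM in TIM 4 and 385599 FPKM in AGM 2 and was listed at 0 in the other 4 glands and in every AG gland, and Cpb1, another one, was at 28333 to 57986 FPKM in AGM and listed at 0 in all tumors but TIM 4. Of the 6 tested pancreas markers 2 were higher and 3 lower. These genes, and another set with values under 1 FPKM in every AG and TI library, 979 tested genes together, were left out when genes were ranked for naming, and their part in the pancreas and liver markers was not tested.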

How the data were processed

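RNA-seq of polyA-enriched, strand-specific libraries was deposited as a table of 21833 protein-coding genes in 24 libraries. Per the labels and the study's methods, the authors trimmed reads with cutadapt (2.8), aligned them to mm39 with HISAT2 (2.1.0) and SAMtools (1.10), counted them with featureCounts (2.0.0), corrected the counts for sequencing run with ComBat-seq and gave FPKM after TMM scaling in edgeR (3.40). The deposited FPKM were therefore corrected values, and the correction can move a gene with few reads in a run far. The table's columns of fold changes and p-values against AG were not used. Columns named their group but not their sample, and 0 columns of values were left unmapped.

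Genes that reached 1 FPKM in 3 or more of the 24 libraries were tested on log2(FPKM + 1) with limma 3.58.1 in R 4.3.3 across all 4 groups, with Benjamini-Hochberg adjusted p below 0.05 called. Dividing by the value of 1 read gave whole reads for 100% of values within 0.01 of a whole number, which set the depth and allowed limma-voom as an alternative. On simulated data with 200 of 10171 genes changed by 2 on the log2 scale, 96% were recovered and 3.52% of calls were false. In the TIM and AGM libraries 6639 of the 10171 genes were called, and the share of false calls among them was not tested. Igf2bp1 and Lin28b, below the filter, were compared by a two-sided exact permutation test of the mean FPKM over 1287 assignments, for which 0.000777 is the smallest p. Positions came from GENCODE mouse release 39 for 21687 matched genes, and promoters from RefSeq. The intervals given are SD or SE over samples.

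Genes were named by rule: the 12 largest rises and 12 largest falls among called genes without overlap between TIM and AGM, leaving out 1005 genes above 1000 FPKM in any library or under 1 FPKM in every AG and TI library; up to 4 members of each list with the largest change and members needed to say what did not pass; fixed genes such as Mycn and Igf2bp1; and the highest of the left-out genes. Some genes are not reported here. Other list members are named as examples of a count, chosen after their values were seen. The comparison, the 26 gene lists and the 10 marker lists were chosen with earlier results of these data known. Alternatives were another pseudocount, other filters and scalings, limma-voom, a rank test, fewer groups and leaving out libraries.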

Additional observations from a re-analysis of the deposited data

Results flagged for a closer look

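In 38 of 308 groups of 5 or 8 libraries examined (12.3%), 1 library stood apart from the rest by Dixon's criterion. Normally distributed values would give about 1 in 20. FPKM of these genes are not such values: for Lep, Mc2r and Rspo3 in TIM, a value near 0 stood apart from values of 0. The share of 12.3% therefore cannot be set against that rate. TIM 5 was the high library in 12 of the 38 groups. In cortical genes these were Cyp21a1 at 3.47 FPKM, Hsd3b1 at 3.54 FPKM, Akr1b7 at 1.72 FPKM, Mrap at 2.04 FPKM, Cyp11b1 at 1.34 FPKM, Cyp11a1 at 0.432 FPKM, Akr1cl at 0.180 FPKM and Cyp2f2 at 0.472 FPKM. The other genes high in TIM 5 were Rbp4 at 3.26 FPKM, Tcf21 at 0.122 FPKM, the p53 target Phlda3 at 33.5 FPKM and the glycolytic enzyme Aldoa at 259 FPKM.

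TIM 8 was low for Alk at 0.363 FPKM and Mnt at 1.55 FPKM, against group medians of 2.37 and 4.29 FPKM, and high for Ly6d at 0.317 FPKM, the erythroid enzyme Alas2 at 4.61 FPKM and Slc17a1 at 22.5 FPKM. TIM 2 was low for Basp1 at 52.7 FPKM. TIM 4 was high for Nr4a3 at 1.36 FPKM, Cpb1 at 0.258 FPKM and Cela3b at 0.0405 FPKM. TIM 7 was high for Lep at 0.00261 FPKM and Tex29 at 42.7 FPKM, TIM 1 for Mc2r at 0.00578 FPKM and TIM 6 for Rspo3 at 0.00719 FPKM, where the group medians of Lep, Mc2r and Rspo3 were 0.

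Among the glands, AGM 5 was low for Basp1 at 0.803 FPKM and Slc18a2 at 0.846 FPKM. AGM 3 was high for Cyp11b1 at 788 FPKM and AGM 4 for Cdt1 at 0.504 FPKM. AGM 1 alone held Sst, at 21.2 FPKM. AGM 2 was high for Cpa1 at 0.00622 FPKM, Ctrb1 at 385599 FPKM and Fndc9 at 2721 FPKM. AGM 3 was high for Prl2c2 at 1498 FPKM, Tmem212 at 18901 FPKM, Ninj2 at 12269500 FPKM and Gm9044 at 610404 FPKM. Cela3b was listed at 0 in AGM 4 and had a group median of 163 FPKM.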

How the results depend on the processing

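The direction of every list median relative to all genes was the same under the other scalings, except for the pancreas markers under limma-voom. Relative to all genes it turned under the strict filter for the capsule list (1.21 from 1 gene) and the MYC network (-0.37 from 4 genes), without a filter for receptors (0.06), the BCL2 list (0.07) and the pancreas (0.38) and kidney markers (0.04), and without AGM 4, AGM 5 and TIM 5 for cholesterol synthesis (0.03). Of 40 alternative values of chromosomes 10 moved by more than the spread of the tumors. With a pseudocount of 0.1, 4262 genes were called with a log2 fold change of at least 1 in size, 1855 of them higher, and with limma-voom 4509, 2524 of them higher, where limma calls 2512 and 879. Without an expression filter 5414 genes were lower. With at least 1 FPKM in every TIM and AGM library, 3832 genes were left and 2170 were called, 1215 higher and 955 lower; 671 had a log2 fold change of at least 1 in size, 317 higher and 354 lower, and 163 list genes were called. Leaving out one library at a time gave 6076 to 6930 called genes. The difference of Igf2bp1 was then 0.0155 to 0.0263 FPKM and passed only without TIM 6 (exact permutation test, adjusted p = 0.0417), and that of Lin28b was 0.124 to 0.206 FPKM and passed only without TIM 6 (0.0253) or TIM 8 (0.0152). The share of calls that were higher was 60.5% with limma-voom, 61.3% with rebuilt FPKM, 45.9% with median-of-ratios scaling, 56.0% under the strict filter and 43.0% without a filter; the all-gene median was 0.35 with limma-voom. Of 147 named genes called, 130 stayed called under every setting that tested them, but the filter of 1 FPKM in every library tested only 43 of the named genes. Slc17a1, called at -7.71, reversed to 0.65 without AGM 4, AGM 5 and TIM 5 together, an alternative chosen after seeing the data. Mki67, Birc5, Ccna2, Rrm2 and Ezh2 lost their call with limma-voom, and Junb without AGM 1 or AGM 3. Ddc was called without TIM 3 or TIM 6. Foxd3 lost its call without TIM 1, Sox10 gained one without TIM 2, TIM 3, TIM 4 or TIM 8, and Col1a1 lost its call without AGM 4, AGM 5 and TIM 5. Slc17a1 lost its call without AGM 4 or AGM 5, Tex29 without AGM 2 or AGM 5, Cd14 without any one of TIM 3, 4, 6, 7 and 8 or AGM 3, 4 and 5, and Calcr without any one library but TIM 1, 2 and 4. Sst, Tmem212, Ctrb1 and Fcer1g gained a call without single libraries. The causes were not tested. Tumors and glands came from mice of different genotypes, so the design holds no pairs, and the columns carry no replicate numbers. Values under 1 FPKM can rest on many reads, as for Tubb2b with 90 to 187 reads in the AGM libraries, but log2(FPKM + 1) compresses their differences.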

Other observations

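Several genes of the marker lists had high values in single tumors. Kap, a kidney gene under androgen control, was at 18.7 FPKM in TIM 8 and 5.12 FPKM in TIM 1 and listed at 0 in every AGM gland. Umod, a marker of the kidney tubule, was at 1.30, 0.983 and 0.843 FPKM in TIM 8, TIM 1 and TIM 5 and at 0 in all 5 AGM glands. Of the skeletal muscle markers, Acta1 was at 0.0627 to 9.02 FPKM in TIM and at 0.00752 to 0.0467 FPKM in AGM, without overlap, and Mylpf was above every gland in 7 of 8 tumors. Sst, the precursor of somatostatin, was at 3619.8 FPKM in TIM 5 and at 967, 406 and 132 FPKM in TIM 3, TIM 1 and TIM 2, and it was listed at 0 in the other 4 tumors. Tac1, the precursor of substance P, was at 16.0 to 21.5 FPKM in TIM 2, TIM 4 and TIM 8 and at 3.28 FPKM or less in the other tumors. Cdkn2a, which encodes cell cycle inhibitors, was at 20.6 FPKM in TIM 7 and 14.6 FPKM in TIM 5 and below every gland in 3 tumors.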
